A study of Mus musculus with 6 samples.

Results

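Glutathione and antioxidant enzymes were followed in brown, subcutaneous and epididymal fat of male mice that lacked Kdm4b, a histone demethylase gene, in the whole body (KO) and of wildtype mice (WT). The members were chosen by symbol: the cytosolic and microsomal glutathione S-transferases, the glutathione peroxidases, the peroxiredoxins, the superoxide dismutases, every symbol that starts with Txn, and Gclc, Gclm, Gss, Gsr, Nqo1, Nfe2l2, Keap1, Hmox1 and Srxn1. This gave 64 of the 18193 genes that the arrays name, each read from 1 probe set, the one with the highest mean signal. Gsta1 and Prdx1 were named only by probe sets that carry several symbols and were not analysed here. The groups were KO brown, WT brown, KO subcutaneous, WT subcutaneous, KO epididymal and WT epididymal fat, with 1 Affymetrix array each. The mice, aged 2 months, ate chow at room temperature and were fasted for 6 hours. The sources used here do not say how many mice gave a sample.

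Glutathione is a small thiol peptide that cells use to neutralise peroxides and reactive lipid products. Glutamate-cysteine ligase and glutathione synthetase make it, glutathione S-transferases attach it to electrophiles, glutathione peroxidases spend it on peroxides, and glutathione reductase restores it. Peroxiredoxins and thioredoxins form a parallel chain, superoxide dismutases turn superoxide into hydrogen peroxide, and the transcription factor Nrf2, encoded by Nfe2l2 and held back by Keap1, drives many of these genes. Brown fat burns fuel in dense mitochondria to make heat, and mitochondria hold their own dismutase, peroxiredoxin, thioredoxin and thioredoxin reductase.

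Values are MAS5 signals, the authors' linear intensity of a probe set, which compare 1 gene between arrays and not genes with each other. Signals were raised to a floor of 63.2 before log2 was taken. Of the 64 members, 58 lay above the floor on at least 3 arrays and were tested; Gpx2, Gpx6, Gsta2, Gstt4, Txndc2 and Txndc8 did not. Tests came from limma fitted to the 13232 genes that passed, with depot and genotype as terms, Benjamini-Hochberg adjustment over all of them and a threshold of 0.05. With 1 array per depot and genotype, the genotypes stood in for replicates of a depot and the depots for replicates of a genotype, so the p-values do not measure the spread between mice. The targeted gene Kdm4b had signals of 188 in KO and 227 in WT epididymal fat, 157 and 272 in subcutaneous fat, and 95.2 and 135 in brown fat, from 1 probe set whose place relative to the deletion is not known here. In bulk fat, fewer cells of a type and less RNA per cell cannot be told apart.

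The tissue labels were set against marker lists. Brown adipocyte markers summed to 116875 in KO and 133830 in WT brown fat, against 7104 to 13697 on the 4 white-fat arrays, and adipocyte markers such as Adipoq and Fabp4 were above the floor on every array. Skeletal muscle markers (10 genes) varied across the arrays: their signals summed to 904 in KO and 19285 in WT brown fat, 67893 in KO and 57201 in WT subcutaneous fat, and 2314 in KO and 5437 in WT epididymal fat. Fibroblast markers (4 genes) summed to 11319 and 17141 in KO and WT brown fat, against 37542 to 51200.3 in the white depots, and macrophage markers (6 genes) to 6122 and 8124, against 29184 to 38299.6. The part of these cells in the results that follow was not tested.

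A few members are shown first with the sequence around their start. They were picked among members that hold the element marked below, so its presence in each was fixed by that choice. They are textbook Nrf2 target genes that passed the test between brown and white fat in opposite directions: Gsta3 lower, Srxn1 and Txnrd1 higher. The windows run from 250 bases before to 50 after the start in RefSeq's annotation of GRCm38.p6, and the capitals mark the core of the antioxidant response element, TGACNNNGC, on either strand. They lie at chr1:21240335-21240634 (+) for Gsta3, chr2:152105274-152105573 (+) for Srxn1 and chr10:82858956-82859255 (+) for Txnrd1, which has other starts in the table.
Gsta3: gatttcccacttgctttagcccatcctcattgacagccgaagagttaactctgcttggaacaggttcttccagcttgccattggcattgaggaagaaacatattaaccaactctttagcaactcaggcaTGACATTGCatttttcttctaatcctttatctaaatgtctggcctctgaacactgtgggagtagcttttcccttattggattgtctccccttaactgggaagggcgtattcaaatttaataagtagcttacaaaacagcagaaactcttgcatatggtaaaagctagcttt
Srxn1: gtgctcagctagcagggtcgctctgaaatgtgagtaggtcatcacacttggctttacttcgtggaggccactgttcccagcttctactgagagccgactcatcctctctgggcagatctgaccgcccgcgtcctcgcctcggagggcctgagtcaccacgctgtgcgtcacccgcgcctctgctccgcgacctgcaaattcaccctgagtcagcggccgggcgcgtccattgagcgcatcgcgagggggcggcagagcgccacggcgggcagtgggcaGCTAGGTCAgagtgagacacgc
Txnrd1: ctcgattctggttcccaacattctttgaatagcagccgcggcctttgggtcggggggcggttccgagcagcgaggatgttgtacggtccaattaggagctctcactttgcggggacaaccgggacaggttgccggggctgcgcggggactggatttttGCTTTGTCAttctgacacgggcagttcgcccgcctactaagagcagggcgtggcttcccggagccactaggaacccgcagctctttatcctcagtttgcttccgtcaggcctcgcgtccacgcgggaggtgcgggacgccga
The match begins 121 bases before the start in Gsta3 and 92 before it in Txnrd1, and at base 29 after it in Srxn1, where it is on the other strand, as in Txnrd1. Of 74 promoters of the 56 members found in the table, 12 held the core (16.2%), against 12.4% of all 32851 promoters of the same length. Counted by gene, 12 of the 56 members held it, among them 5 of 18 that were higher in brown fat and 2 of 15 that were lower. The share by gene over all genes was not counted, so these counts have no like background. A match describes letters in this window and no bound site.

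Brown and white fat differed in most of these genes, as in most genes tested, where 6262 of 13232 did not pass. Relative to the mean of the white depots, 20 of the 58 tested members rose in brown fat and 15 fell, against 21.5% and 31.2% of all genes tested, and their median log2 difference was 0.22, against -0.11 over all genes. The 23 others did not pass. In shares, 34.5% of the members were higher and 25.9% lower. Without the WT epididymal, KO brown or WT brown array, 13 members rose in place of 20. The weaker calls, among them Mgst1, Txn1, Gstm1 and Txnl4a, were lost whichever array was left out. With limma on all genes, unfiltered, Gpx8, Gss, Gstm6, Gstt3, Gstz1, Mgst2, Mgst3, Nqo1, Txndc12, Txnl4a and Txnrd1 did not pass. Calls for 11 higher and 7 lower members held in every one of the other settings in which they were tested.

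**Figure D1:**
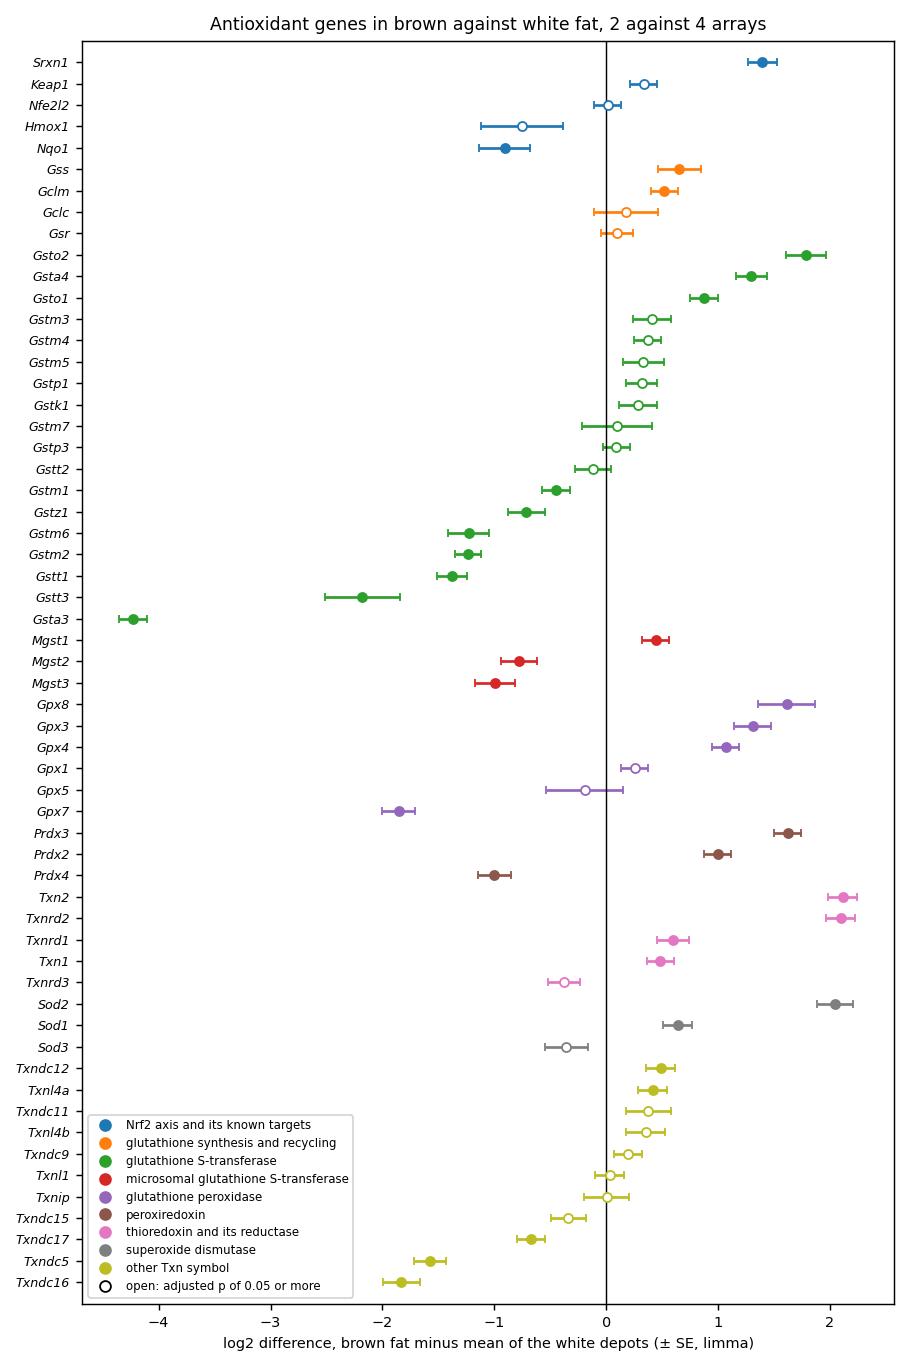
Log2 difference of each of the 58 tested members between brown fat and the mean of the white depots (x axis; points are limma estimates, bars their SE, 2 against 4 arrays), grouped by role; filled points passed at an adjusted p under 0.05. Txn2, Txnrd2 and Sod2 lie furthest right, above 2, and Gsta3 furthest left at -4.23.

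Txn2, Txnrd2, Sod2 and Prdx3, whose proteins work inside mitochondria, rose in brown fat. These 4 were grouped by textbook location after their values were seen. Gstk1, a kappa-class transferase also found in mitochondria, did not pass, at 0.28 ± 0.17 on the log2 scale. Txn2, the mitochondrial thioredoxin, had signals of 4504 in KO and 5633 in WT brown fat, against 1022 and 1061 in KO and WT subcutaneous fat and 1284 and 1321 in KO and WT epididymal fat. Txnrd2, the reductase that recharges it, had 1864 and 1663 in KO and WT brown fat, against 334 and 362 in subcutaneous and 496 and 481 in epididymal fat. Both brown arrays stood above all 4 white ones for either gene, whatever the genotype. The log2 difference was 2.11 ± 0.13 (SE) for Txn2 and 2.10 ± 0.13 for Txnrd2, 4.32-fold and 4.27-fold higher (limma adjusted p = 0.000508 and 0.000491).

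Sod2, the manganese superoxide dismutase of the mitochondrial matrix, had 29716 in KO and 37388 in WT brown fat, against 7572 and 6685 in subcutaneous and 9637 and 8677 in epididymal fat. Prdx3, the mitochondrial peroxiredoxin, had 17140.5 and 16523 in KO and WT brown fat, against 4701 and 4956 in subcutaneous and 5996 and 6427 in epididymal fat. The brown arrays again lay apart from the white ones, and the difference was 4.13-fold for Sod2 and 3.07-fold for Prdx3 (limma adjusted p = 0.000716 and 0.000658). Prdx3 has 1 probe set, and every other probe set of the remaining genes pointed the same way: from 1.85 to 2.24 on the log2 scale for the other probe sets of Sod2, 1.62 and 1.79 for Txn2, and from 1.26 to 1.52 for Txnrd2. Within the KO arrays alone, the brown minus epididymal differences were 1.81 for Txn2, 1.91 for Txnrd2, 1.62 for Sod2 and 1.52 for Prdx3.

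Outside mitochondria the thioredoxin and peroxiredoxin genes divided. Prdx2, a cytosolic peroxiredoxin, rose 1.99-fold in brown fat (limma adjusted p = 0.00218) and Prdx4, the peroxiredoxin of the endoplasmic reticulum, fell 2.00-fold (adjusted p = 0.00421), although a weaker probe set of Prdx4 pointed the other way by 0.62. The cytosolic pair Txn1 and Txnrd1 rose 1.40-fold and 1.51-fold (adjusted p = 0.023 and 0.0199), but Txn1 had a log2 difference of -0.02 after quantile normalization, and Txnrd1 did not pass without the WT epididymal, the KO subcutaneous or either brown array. Sod1, the cytosolic copper-zinc dismutase, rose 1.55-fold (adjusted p = 0.0123), but it had a log2 difference of 0.03 after quantile normalization and 0.23 with the mean of its probe sets, and passed in neither, nor without the KO brown array. The secreted dismutase Sod3 had a log2 difference of -0.36 ± 0.19 and did not pass. Txnrd3, a reductase known mainly from testis, also missed the threshold at -0.38 ± 0.14.

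Srxn1, the sulfiredoxin that repairs over-oxidised peroxiredoxins, had signals of 1537 in KO and 1209.8 in WT brown fat, against 486 and 455 in subcutaneous and 581 and 562 in epididymal fat. Both brown arrays exceeded all the white ones, a rise of 1.40 ± 0.13 on the log2 scale (SE, limma adjusted p = 0.00111), and its other probe sets gave 1.14 to 1.30. Other genes of the Nrf2 axis had other values. Nfe2l2 itself differed by 0.01 ± 0.12 and Keap1 by 0.34 ± 0.12, neither passing. Hmox1 did not pass either, at -0.75 ± 0.37, while the quinone reductase gene Nqo1 fell 1.87-fold in brown fat (adjusted p = 0.024), a call lost after quantile normalization, with the floor at the 20th percentile and without the WT brown array.

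**Figure D2:**
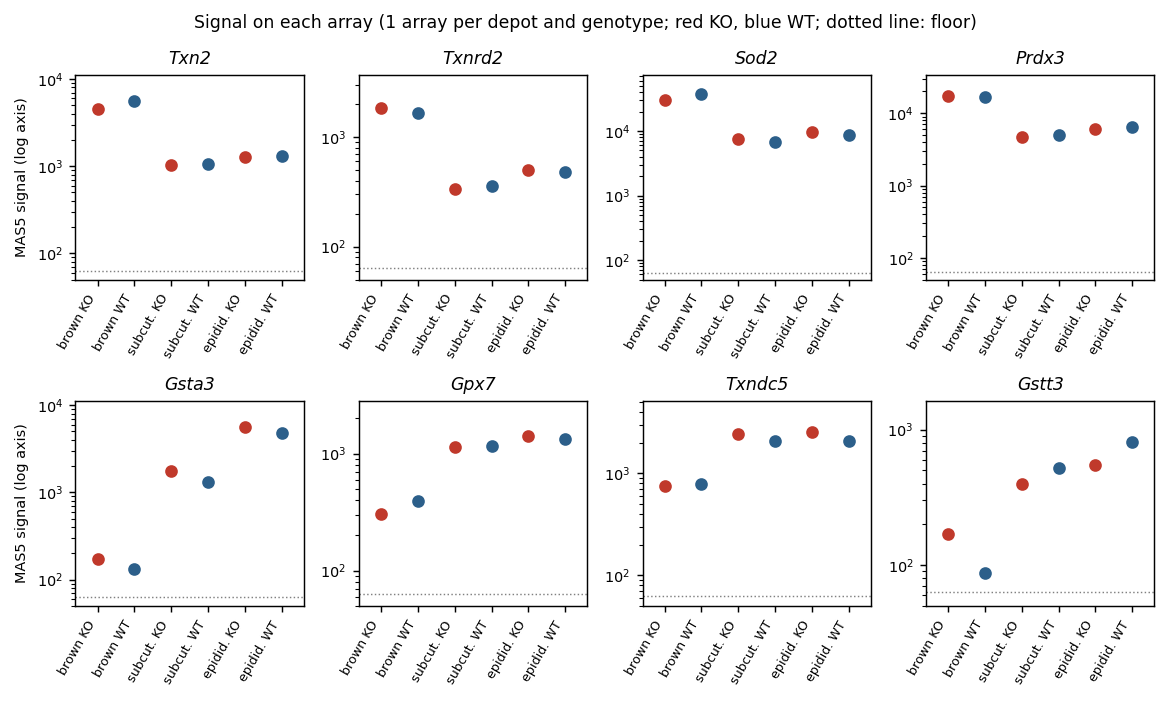
MAS5 signal (y axis, log scale, 1 point per array) of 4 members that rose and 4 that fell in brown fat, with KO (red) left of WT (blue) in each depot and the floor as a dotted line. The brown-fat points of Txn2, Txnrd2, Sod2 and Prdx3 lie above all white-fat points, and those of Gsta3, Gpx7, Txndc5 and Gstt3 below them.

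Glutathione peroxidases rose in brown fat for 3 of 6 tested members (50%) and fell for 1 (16.7%), against 21.5% and 31.2% of all genes tested. Gpx4, which reduces lipid peroxides in membranes, had 33727 in KO and 34645 in WT brown fat, against 15681 and 14294 in subcutaneous and 17452 and 18185 in epididymal fat, a 2.09-fold rise (limma adjusted p = 0.00202). Its log2 difference ran from 0.40 to 1.20 across the settings tried. Gpx3, the secreted plasma enzyme, rose 2.48-fold (adjusted p = 0.00273). Gpx8, a peroxidase of the endoplasmic reticulum, had 7368 in KO and 11537 in WT brown fat, against 2966 and 3869 in subcutaneous and 3183 and 2269 in epididymal fat, a 3.06-fold rise (adjusted p = 0.00552).

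Gpx7, which like Gpx8 resides in the endoplasmic reticulum, went the opposite way. Its signals were 307 in KO and 395 in WT brown fat, against 1146 and 1168 in subcutaneous and 1410.3 and 1342 in epididymal fat, and it fell by 1.86 ± 0.15 on the log2 scale (SE, limma adjusted p = 0.000718). The broadly expressed cytosolic enzyme gene Gpx1 differed by 0.25 ± 0.12 and did not pass, nor did the epididymal enzyme gene Gpx5. Gpx2, an enzyme of gut epithelium, and Gpx6 were among the members not tested: Gpx6 lay under the floor on all 6 arrays, with signals from 11.1 to 49.2.

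Glutathione S-transferases fell in brown fat for 7 of 18 tested members (38.9%) and rose for 3 (16.7%), against 31.2% and 21.5% of all genes tested. Gsta3, an alpha-class enzyme that conjugates aflatoxin in mouse liver, showed the widest gap of all members. Its signals were 172 in KO and 132 in WT brown fat, against 1761 and 1332 in subcutaneous and 5608 and 4831 in epididymal fat. The 3 depots did not overlap, and it was 18.7-fold lower in brown fat (log2 -4.23 ± 0.12 SE, limma adjusted p = 0.000394); the second probe set gave -2.71. Gsta4, of the same class, which removes the lipid aldehyde hydroxynonenal, rose instead, with 4842 in KO and 4212 in WT brown fat, against 1807 and 1611 in subcutaneous and 1870.2 and 2102 in epididymal fat (2.46-fold, adjusted p = 0.00165).

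Of the theta class, Gstt3 had 168 in KO and 88.1 in WT brown fat, against 399 and 523 in subcutaneous and 543 and 815 in epididymal fat, 4.53-fold lower (limma adjusted p = 0.00509). Gstt1 fell by 1.38 ± 0.13 on the log2 scale (SE, adjusted p = 0.00119) and Gstt2 did not pass, at -0.12 ± 0.16. The zeta-class gene Gstz1, whose enzyme acts in tyrosine breakdown, fell 1.64-fold (adjusted p = 0.0187), but did not pass without the KO epididymal or the KO brown array. Among the mu class, Gstm2 fell 2.36-fold and Gstm6 at least 2.34-fold (adjusted p = 0.00112 and 0.00441). The signal of Gstm6 was 90.3 in KO brown fat and 51.3, under the floor, in WT brown fat. The omega-class genes, whose enzymes reduce dehydroascorbate, went up: Gsto2 rose 3.45-fold (adjusted p = 0.00138), with 431 and 315 in KO and WT brown fat against 93.9 to 128 on the white arrays, and Gsto1 rose 1.83-fold (adjusted p = 0.00364). Paralogous transferases are alike in sequence, so a probe set can read a neighbour of the same class. All 3 microsomal transferases passed, 1 higher and 2 lower, where 21.5% of all genes tested were higher and 31.2% lower. Mgst2 and Mgst3 fell 1.72-fold and 1.99-fold (limma adjusted p = 0.0124 and 0.00823), neither passing without the WT brown array, and Mgst1 rose 1.36-fold but had a log2 difference of -0.23 after quantile normalization.

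Genes of glutathione synthesis rose in part. Gclm, the regulatory subunit of glutamate-cysteine ligase, rose 1.43-fold in brown fat and Gss, glutathione synthetase, 1.57-fold (limma adjusted p = 0.0202 and 0.0381). The catalytic subunit Gclc and the reductase Gsr did not pass, at 0.17 ± 0.29 and 0.09 ± 0.15 on the log2 scale. Both calls depended on the arrays used: Gclm did not pass without any 1 of the arrays other than WT subcutaneous fat, nor Gss without either epididymal array, the WT subcutaneous or the WT brown array.

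Of 11 tested members with other Txn symbols, whose proteins carry thioredoxin-like folds or bind thioredoxin, 2 rose and 3 fell. Their shares were 18.2% and 27.3%, against 21.5% and 31.2% of all genes tested. Txndc5, a disulfide isomerase of the endoplasmic reticulum, had 746 in KO and 789 in WT brown fat, against 2439.7 and 2071 in subcutaneous and 2575 and 2099 in epididymal fat, a fall of 1.57 ± 0.14 on the log2 scale (SE, limma adjusted p = 0.00096). Txndc16 had 211 and 168 in KO and WT brown fat, against 735 and 617 in subcutaneous and 612 and 727 in epididymal fat, 3.56-fold lower (adjusted p = 0.00102), and Txndc17, a cytosolic thioredoxin-related protein, was 1.60-fold lower (adjusted p = 0.00902), though it did not pass without the KO brown array. Txnl4a, a splicing factor by function, and Txndc12 rose 1.33-fold and 1.40-fold (adjusted p = 0.0448 and 0.0284), but the Txndc12 call was lost without any 1 of the arrays other than KO subcutaneous fat. Txnip, the thioredoxin inhibitor, did not pass, at 0.00 ± 0.20. The fibroblast markers were lower in brown fat on the same arrays as Gpx7, Prdx4, Txndc5 and Txndc16, and their part in these differences was not tested.

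Between the white depots few members passed. In subcutaneous against epididymal fat, 1 of 58 rose and 3 fell, against 3.91% higher and 1.16% lower among all genes tested, with a median log2 difference of -0.20 against 0.00 over all genes. All 4 were glutathione S-transferases. Gsta3 was 3.40-fold lower in subcutaneous fat (limma adjusted p = 0.00653). Gstm6 was 3.04-fold lower, with signals of 105 in KO and 97.9 in WT subcutaneous fat, against 287 and 332 in epididymal fat (adjusted p = 0.0222), and Gstm4 1.82-fold lower, with 535 and 397 against 927 and 760.1 (adjusted p = 0.0397). All 7 tested mu-class genes were lower by value in subcutaneous fat, as were 46 of the 58 members and 6596 of 13232 genes. The 5 other mu-class genes did not pass, and the log2 difference of Gstm3 ran from -0.59 to 0.03 across the settings tried. Gstp3 had 170 in KO and 181 in WT subcutaneous fat against 46.7 and 6.38 in epididymal fat, under the floor there, at least 2.78-fold higher (adjusted p = 0.0094). B cell markers (3 genes) summed to 8796 in KO and 8910 in WT subcutaneous fat, against 604 and 803 in epididymal fat. T cell markers (3 genes) summed to 3387 and 4252, against 232 and 281. Mesothelium markers (4 genes) summed to 259 and 301, against 6905 and 7419. The part of these cells in the 4 calls was not tested.

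The 4 calls were lost when either epididymal array was left out, where 0 members passed. Gstm4 was also lost without any 1 of the other arrays, and Gstm6 without the KO subcutaneous array. Centring each array on its median moved the median difference of all genes in this comparison to -0.33, and 1 member then rose and 10 fell. Among all calls, 77.2% were higher in subcutaneous fat without further scaling, 62.3% with quantile normalization and 27.3% with centring.

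No member passed between KO and WT. In the fit over depots 0 of 58 members passed, as did 0% of all genes tested (limma, smallest adjusted p among members = 0.478, for Gpx3); before adjustment, p lay under 0.05 for 2 members higher and 1 lower in KO, against 503 and 600 of 13232 genes. With an intensity trend in the variance, 0 members passed as well. The median log2 difference of the members was 0.05, against -0.01 over all genes. Of the 58, 13 were higher in KO in all 3 depots and 9 lower in all 3, where 14.8% and 15.8% of all genes tested were. With a mean size of at least 0.3 on the log2 scale, 6 members kept 1 direction in all 3 depots, against 11.4% of all genes.

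Within a depot there is no test. At least 2-fold between KO and WT were 2 of 58 measured members in epididymal fat, 1 of 60 in subcutaneous fat and 2 of 61 in brown fat, against 2.33%, 2.96% and 3.53% of all measured genes. At 1.5-fold they were 4, 3 and 6, against 11.0%, 12.5% and 13.8%. The shares of members past 1.5-fold, 6.90%, 5% and 9.84%, lay below these backgrounds. The SD between probe sets of 1 gene, the only error at hand, was 0.31 on the log2 scale in epididymal fat and 0.32 in each other depot, and it leaves out the spread between mice.

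**Figure D3:**
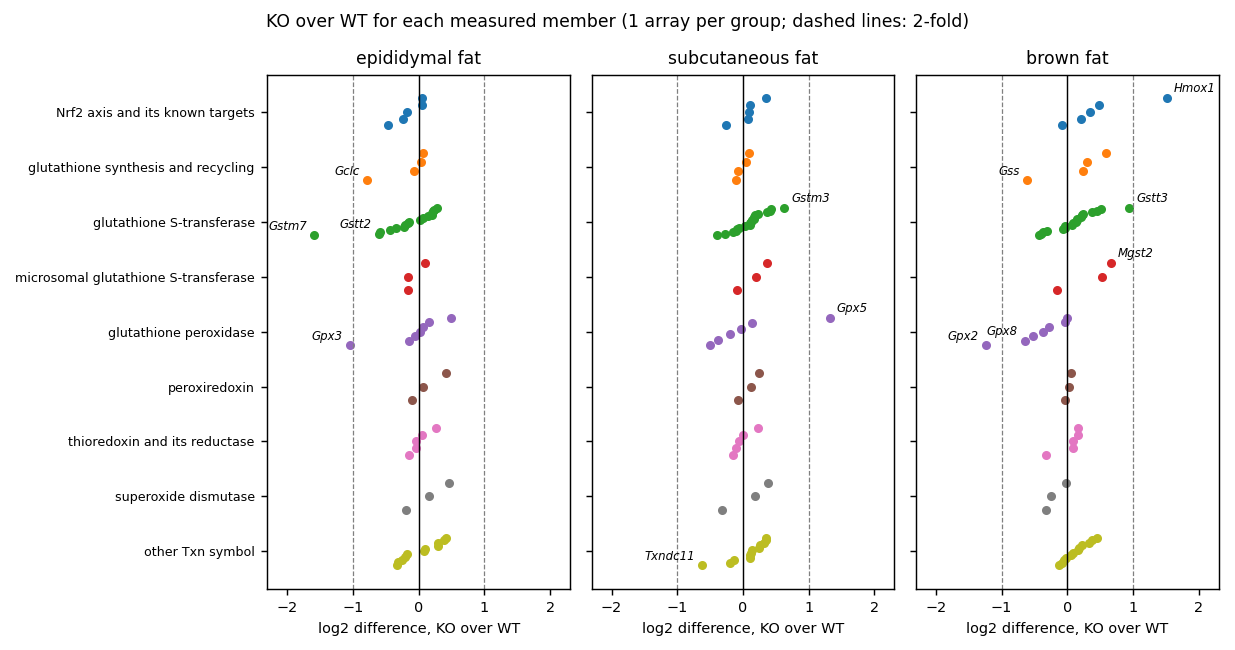
Log2 difference between KO and WT (x axis) of every member measured in each depot, 1 array per group, grouped by role (y axis); dashed lines mark 2-fold and members past 1.5-fold are named. Most members lie within 2-fold in every depot, with Gstm7 and Gpx3 to the left in epididymal fat and Hmox1 to the right in brown fat.

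Gpx3, the plasma glutathione peroxidase that fat and kidney secrete, was the member with the smallest p for genotype. Its signals were 4372 in KO and 9053 in WT epididymal fat, 4653 and 6556 in KO and WT subcutaneous fat, and 12166 and 17515 in KO and WT brown fat. The KO array was the lower one in each depot, by 2.07-fold, 1.41-fold and 1.44-fold, each more than the SD between probe sets. The mean log2 difference was -0.69 ± 0.31 (SD, n = 3 depots), which did not pass over all genes in limma (adjusted p = 0.478, and 0.0816 with an intensity trend). Skeletal muscle markers were lower in KO for 10 of 10 genes in epididymal and brown fat and higher for 9 of 10 in subcutaneous fat, and their part in these values was not tested.

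Nfe2l2, Sod1, Gpx1, Mgst1, Txn2, Gstt1, Gstt2 and Gstm7 were the others lower in KO in all 3 depots. Nfe2l2 had 2865 in KO and 3395 in WT epididymal fat, 2629 and 3138 in subcutaneous fat and 2936 and 3103 in brown fat. By this probe set the log2 differences were -0.25, -0.26 and -0.08, smaller than the SD between probe sets. A weaker probe set gave -0.58, -0.23 and -0.95, the first and last of them larger than that SD. Those higher in KO in all 3 were Gsta3, Gstm2, Gstm3, Gstm4, Gsto1, Gclm, Keap1, Mgst2, Prdx2, Srxn1, Txndc9, Txndc17 and Txnl1. Both lists rest on 1 probe set per gene. Another probe set above the floor had the opposite sign in at least 1 depot for Gstm7, Sod1 and Txn2 among the lower members. The same held for Gsta3, Gsto1, Gclm, Prdx2, Srxn1, Txndc17 and Txnl1 among the higher ones. Other probe sets of Nfe2l2, Keap1 and Txndc9 kept the direction. Gsta3 had log2 differences of 0.22, 0.40 and 0.38, for epididymal, subcutaneous and then brown fat, and Gstm4 of 0.29, 0.43 and 0.24. Neither passed in limma (adjusted p = 0.59 for each).

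In epididymal fat the 4 members past 1.5-fold were all lower in KO. Of all genes measured there, 875 were lower and 580 higher past 1.5-fold. The median signal of an array was 88.8 in KO and 97.5 in WT epididymal fat. Gstm7, a mu-class transferase, had 239 in KO and 718 in WT epididymal fat, 191 and 213 in subcutaneous fat, and 266 and 358 in brown fat. The WT epididymal array stood above the other 5, and the log2 difference there was -1.59 by this probe set and -0.51 by the weaker one. Gclc, the catalytic subunit that sets the pace of glutathione synthesis, had 865 in KO and 1486 in WT epididymal fat (log2 -0.78), 1253 and 1322 in subcutaneous fat (-0.08), and 1668 and 1113 in brown fat (0.58). Its direction thus differed between epididymal and brown fat, and the second probe set gave -0.29, -0.17 and 0.53. Gstt2 was 1.52-fold lower, with 1462 in KO and 2217 in WT epididymal fat. Macrophage markers were higher by value in KO epididymal fat for 6 of 6 genes.

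**Figure D4:**
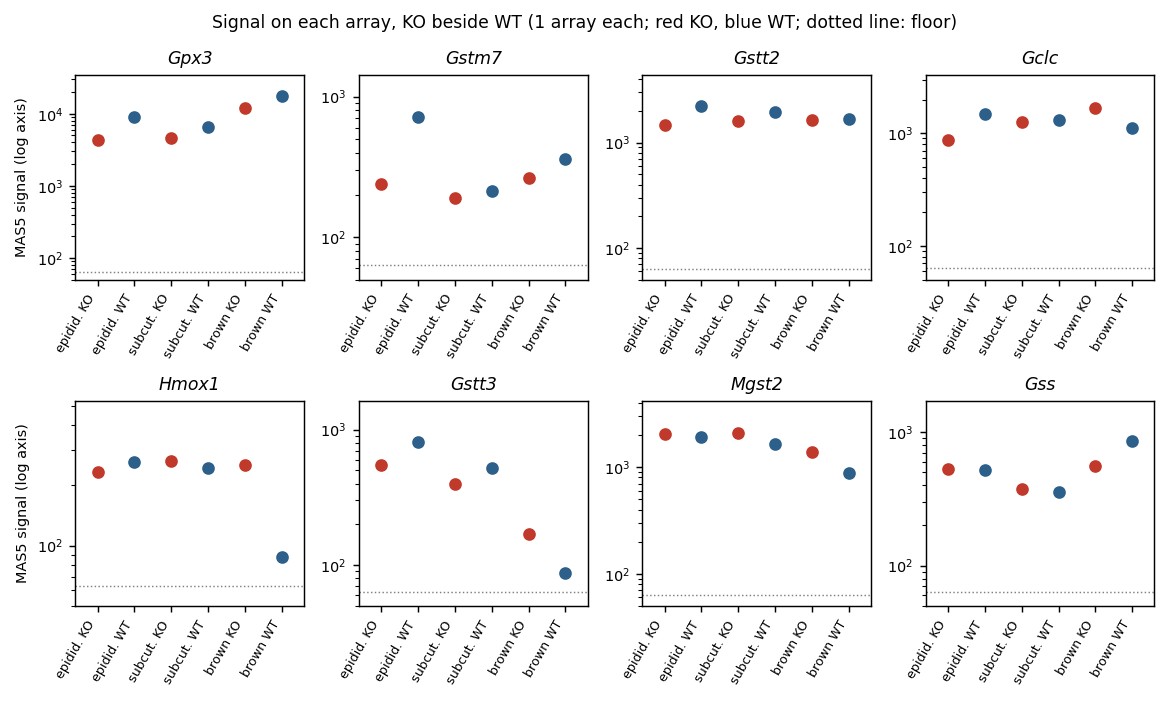
MAS5 signal (y axis, log scale) on each array of 8 members past 1.5-fold in 1 depot, with KO (red) left of WT (blue) in epididymal, subcutaneous and brown fat and the floor as a dotted line. Gpx3 is lower in KO in all 3 depots, while Hmox1 and Gstt3 are higher in KO in brown fat and Gstm7 lower in KO in epididymal fat.

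In brown fat Hmox1, the inducible heme oxygenase and a known Nrf2 target, had 252 in KO and 88.2 in WT, a 2.85-fold difference. In the white depots Hmox1 had 265 in KO and 245 in WT subcutaneous fat and 232 and 262 in epididymal fat, so the WT brown array was the low one and the other 5 were close together. Gstt3 was 1.91-fold higher in KO brown fat, with 168 and 88.1, and lower in KO in both white depots, with 399 in KO and 523 in WT subcutaneous fat and 543 and 815 in epididymal fat. Mgst2, a microsomal transferase active in leukotriene synthesis, had 1398 in KO and 885 in WT brown fat, 1.58-fold higher. With the floor at the 60th percentile, the brown-fat log2 difference of Hmox1 was 0.55 and that of Gstt3 was 0.00, since the WT signal of Hmox1 and both signals of Gstt3 lie below it.

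Whether the genotype difference in brown fat departs from that in the white depots was tested as an interaction, in which 0 of 58 members and 0% of all genes passed (limma). Before adjustment, p lay under 0.05 for 5 of 58 members and 1067 of 13232 genes. Hmox1 and Gstt3 had the smallest p among the members, with interaction terms of 1.55 ± 0.27 and 1.42 ± 0.25 on the log2 scale (SE, limma adjusted p = 0.529 for each, 1 residual degree of freedom per gene). Lower in KO brown fat were Gss, with 556 in KO and 854 in WT, Gpx8, with 7368 and 11537, and Gpx2, with 47.2 and 149, at least 2.36-fold lower since the KO signal lay under the floor. By value, 7 of 7 measured glutathione peroxidases were lower in KO brown fat, as were 7392 of 13778 genes, but Gpx1 and Gpx4 turned to 0.05 and 0.02 after quantile normalization and to 0.14 and 0.10 after median centring. Macrophage markers were lower by value for 6 of 6 genes and fibroblast markers for 4 of 4 in the same KO array, and muscle markers summed to 904 in KO against 19285 in WT.

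In subcutaneous fat 3 members were past 1.5-fold. Gpx5, an enzyme of the epididymis, had 157 in KO and 59.9 in WT subcutaneous fat, at least 2.49-fold higher. Seminal vesicle markers summed to 1671 in KO and 8359 in WT subcutaneous fat. No list of epididymis markers was used, and the part of either tissue in the Gpx5 values was not tested. Gstm3 was 1.54-fold higher, with 271 in KO and 176 in WT, and Txndc11, an endoplasmic reticulum protein, 1.54-fold lower, with 191 and 294. The other members stayed closer, and Gpx3 was next among the lower ones at -0.49.

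Related redox genes outside the symbol rule were counted beside the members. Of 59 listed genes 52 were tested, and 19 were higher in brown fat and 19 lower (36.5% each), against 21.5% and 31.2% of all genes tested. Their median log2 difference was 0.13, against -0.11 over all genes. Taldo1 (2.61-fold), Tkt (2.01-fold), Pgd (1.83-fold) and Idh2 (3.06-fold), whose enzymes act in the pentose phosphate path or make NADPH in mitochondria, all rose in brown fat (limma adjusted p = 0.00118, 0.00544, 0.00796 and 0.0013). Nnt, the mitochondrial transhydrogenase that also makes NADPH, fell 9.42-fold there (adjusted p = 0.000437), with 117 in KO and 108 in WT brown fat against 904 to 1279 on the white arrays. Catalase, Cat, did not pass, at 0.27 ± 0.15 on the log2 scale. These names were chosen after their values were seen.

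For genotype, 0 of the 52 passed in limma, as did 0% of all genes tested. Before adjustment, p lay under 0.05 for 4 higher and 2 lower genes, against 503 and 600 of 13232 genes. Of the 52, 13 were higher in KO in all 3 depots and 8 lower, where 14.8% and 15.8% of all genes tested were. The genes named next were chosen after their values were seen. Mt2, a metallothionein, had 10436 in KO and 5182 in WT epididymal fat, 6033 and 3559 in subcutaneous fat, and 11686 and 8307 in brown fat, so KO was the higher array in each depot. Sesn2, a stress-induced sestrin, was lower in KO in each, with 150 in KO and 339 in WT epididymal fat, 208 and 258 in subcutaneous fat, and 300.1 and 449 in brown fat. Chac1, whose enzyme degrades glutathione, had 464 in KO and 892 in WT epididymal fat and 132 and 259 in brown fat, but 747 in KO and 653 in WT subcutaneous fat. In brown fat the NADPH-producing genes Pgd and Me1 had 17569 and 18604 in KO, against 11172 and 10562 in WT, while Idh2, Nnt and Idh1 had log2 differences of -0.24, 0.12 and 0.13.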

How the data were processed

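The values were Affymetrix probe set intensities from 6 arrays of biotin-labelled total RNA. The submitters' processing notes name MAS5 and Affymetrix Expression Console, without versions. The 2%-trimmed mean of the deposited intensity values rounded to 500.003 or 500.004 on every array, so arrays were scaled to equal brightness and total RNA per cell is not measured. MAS5 uses no other array when it summarises a probe set. Signals of dim probe sets are noisy. Precision is limited by the number of arrays.

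Of 45037 probe sets other than controls, 34945 carried 1 symbol, 932 several and 9160 none. Of those with 1 symbol, 34741 were found by gene identifier in a RefSeq table of GRCm38.p6. The floor was the 40th percentile of the probe sets, as a median over arrays. limma 3.58.1 (R 4.3.3) was fitted to log2 values with depot and genotype as terms, and Python 3.11.15 was used for the rest. The fit was tested on simulated data. Named members are the redox genes with a defined core role, the transferases and other Txn symbols with up to 6 of the largest passing differences per direction, members past 1.5-fold in a depot with the brighter array above 2 times the floor, and members with 1 direction in all depots and a mean size of at least 0.3. Members and lists were chosen with earlier results of these data known. Alternatives were other scalings, floors, probe set rules, variance models, filters and fold thresholds, a narrower reading of Txn, and leaving out arrays or depots.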

Additional observations from a re-analysis of the deposited data

How the results depend on the processing

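For brown against white fat, the number of higher members stayed between 14 and 24 and that of lower members between 12 and 17 under other scalings, floors, probe sets, variance models and the narrower reading of Txn, except that limma on all genes gave 9 lower. Leaving out 1 array gave 13 to 16 higher and 12 to 15 lower. After quantile normalization Mgst1 and Txn1 turned to -0.23 and -0.0196. For subcutaneous against epididymal fat, 0 rose with the floor at the 20th or 60th percentile or with limma on all genes, and 0 fell with the floor at the 20th percentile or with limma on all genes, while 10 fell after median centring and 7 with an intensity trend; leaving out 1 array gave 0 to 2 higher and 0 to 2 lower. For KO against WT over depots 0 members passed in any alternative, leaving out each depot included. Past 2-fold in epididymal fat there were 1 after median centring, 5 with the floor at the 20th percentile and 4 at 1.5-fold; in subcutaneous fat 3 with the lower floor, 0 with the higher and 3 at 1.5-fold; in brown fat 4, 0 and 6. Of 864 depot values of named members, 25 moved by more than the SD between probe sets. Of 728 depot contrasts of named members in the settings that kept all arrays, 30 lost and 21 gained the threshold. Calls lost on leaving out an array are not in this count. The causes were not tested. No paired analysis was possible because the labels give no replicate numbers; the depot term already sets KO against WT within each depot. Signals near the floor limit what can be said of Gpx2, Gpx5, Gstp3, the brown-fat values of Gstm6 and the WT brown values of Hmox1 and Gstt3.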
